A study of Bos taurus with 6 samples.

Results

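The contractile cytoskeleton genes described here are the actins ACTA2 and ACTG2, the actin-binding proteins TAGLN, CNN1, CNN2 and CALD1, the tropomyosins TPM1 and TPM2, the myosin heavy chain MYH11 and the myosin regulatory light chain MYL9. They were taken by gene symbol, and all 10 were found, each with a single transcript cluster, among 20074 distinct symbol entries and 26773 transcript clusters of the array table. A transcript cluster is the unit in which the Bovine Gene 1.0 ST Array reports a gene. The 26773 are all rows of the table, with 82 rows taken as control reporters among them, and shares of all transcript clusters count every row. The samples were 6 cultures of primary bovine granulosa cells (GC), 3 of them plated at normal and 3 at high density, and each was hybridized to 1 array. Both groups were primary cells kept for 9 days in serum-free alpha-MEM with FSH, IGF-1 and androstenedione, so that the initial plating density is the only difference the labels give. The GC preparations were pools from many follicles of many cows, so the spread between cultures is not a spread between animals.

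Smooth muscle and myofibroblasts contract when myosin II pulls on actin filaments. Tropomyosins and caldesmon lie along the filament, calponins and transgelin bind to it, and phosphorylation of the regulatory light chain switches the motor on. In the ovary this set of genes is best known from the smooth-muscle-like cells of the outer theca and the vessel walls, but part of it is also made by non-muscle cells in stress fibres. Many of its genes are controlled by serum response factor (SRF) and its coactivators of the myocardin family.

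Signals are given on the log2 scale of the deposited table and group values as mean ± SD over 3 cultures. Each change is a log2 fold change (log2 FC, high minus normal density) with its standard error (SE) and the adjusted p from limma, a moderated test fitted over the whole table. A transcript cluster was termed called at a fold change above 1.5 in size together with a p-value and a false discovery rate (FDR) below 0.05. The background level was 4.62, the 95th percentile of 82 rows taken as control reporters from their RPT accession prefix, and for 51.2% of all transcript clusters the higher group mean did not rise above it. Array medians lay between 4.34 and 4.43. Euclidean distances over the whole table were 31.2 to 32.4 between normal density cultures, 45.0 and 47.5 for the pairs with high density replicate 2 and 35.3 between the other high density cultures, so that this culture stood somewhat apart. The number of arrays limits the precision.

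Of the 10 genes, ACTA2 and TAGLN rose at high density, each to a little over 2 times its normal density signal. MYH11, with signals around or below the background level, was called down. The other 7 genes were not called, and their log2 FC values lay between −0.30 for TPM1 and 0.23 for CNN1. The 3 called genes stand against 7.49% of all transcript clusters, with 2 called up against 3.97% and 1 called down against 3.51%. At any fold change 4 of the genes passed the FDR threshold (the called ones and TPM1), while 19.1% of all transcript clusters did. The median log2 FC of the 10 genes was 0.04, beside 0.02 over all transcript clusters, and it was −0.004 after each array had been shifted to the same median, so that its sign depended on the scaling. For 7 genes the signals of the groups did not overlap, and the same held for 37.3% of all transcript clusters. The plot of the signals of each culture shows all 10 genes on axes of equal length.

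**Figure D1:**
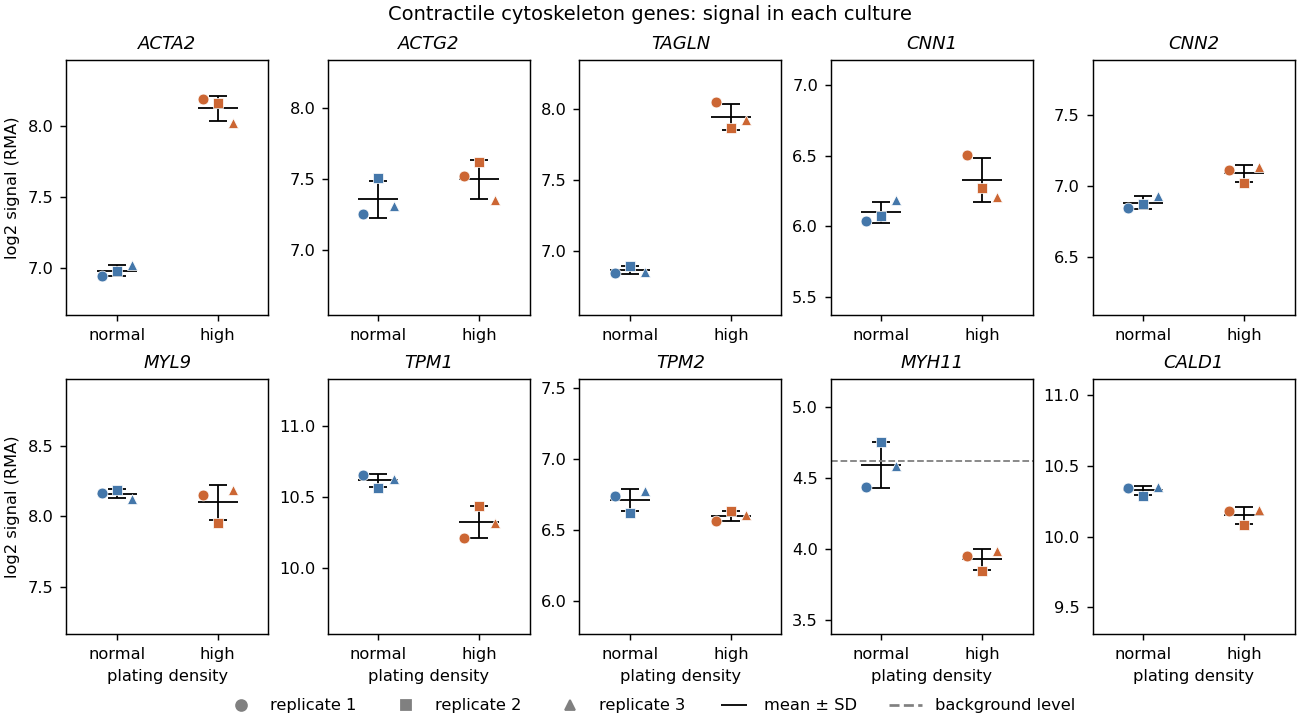
Log2 signal (RMA, y axis) of each gene at normal (blue) and high (orange) plating density. Circles, squares and triangles are replicates 1, 2 and 3, horizontal bars are means and whiskers SD (n = 3), every panel spans the same log2 range, and the dashed line marks the background level of 4.62. ACTA2 and TAGLN stand clearly higher at high density, MYH11 lies lower and around or under the background line, and the other panels show smaller shifts.

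ACTA2 encodes the actin of vascular smooth muscle and is widely used as the marker of myofibroblasts. Its transcript cluster (12822288) had signals of 6.94, 6.98 and 7.02 in the normal density cultures. At high density the signals were 8.19, 8.16 and 8.03. Every high density culture was therefore above every normal density culture, and the cultures of a density lay close together. The means were 6.98 ± 0.04 and 8.13 ± 0.09 (SD, n = 3), a log2 FC of 1.15 (SE 0.07, limma's adjusted p = 0.0001), which is a fold change of 2.21. Of all transcript clusters 98.2% had a smaller change in size. The call of ACTA2 held with any single culture left out, with log2 FC values between 1.11 and 1.20.

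ACTG2 encodes the actin of visceral smooth muscle, a protein nearly identical to that of ACTA2. For ACTG2 (12703851) the normal density signals were 7.26, 7.51 and 7.31 and the high density signals 7.52, 7.62 and 7.35. These groups overlapped, since normal density replicate 2 was higher than high density replicate 3. The log2 FC was 0.14 (SE 0.10, limma's adjusted p = 0.396), with a 95% interval from −0.10 to 0.38 that leaves out a rise to 1.5-fold. The array values do not show how far probes for these closely related actins also pick up each other's transcripts, and this was not tested.

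The cytoplasmic actins of non-muscle cells, ACTB and ACTG1, were measured at high signals in all cultures. ACTB had means of 11.85 ± 0.02 and 11.85 ± 0.02 (SD, n = 3) and a 95% interval of the log2 FC from −0.15 to 0.15. For ACTG1 the interval ran from −0.08 to 0.22. The sarcomeric actins gave weak signals. ACTC1, the cardiac actin, was below the background level in all 6 cultures, and ACTA1, the skeletal muscle actin, was below it in the 3 normal density cultures. ACTA1 passed the FDR threshold (limma's adjusted p = 0.028) but was not called, and measured against the background level it was at least 1.003-fold higher at high density. Of the 6 actins ACTA2 was called and the other 5 were not.

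TAGLN encodes transgelin (SM22), a calponin-related protein that binds actin filaments and is an early marker of the smooth muscle lineage. The signals of its transcript cluster (12727781) were 6.85, 6.90 and 6.85 at normal density and 8.05, 7.87 and 7.92 at high density. As for ACTA2, the groups lay far apart compared with the spread within them. The means were 6.87 ± 0.03 and 7.95 ± 0.09 (SD, n = 3), a log2 FC of 1.08 (SE 0.07, limma's adjusted p = 0.000125) or a fold change of 2.12. With each culture left out in turn the log2 FC was between 1.03 and 1.12 and TAGLN was always called. Its paralog TAGLN2, the form of non-muscle cells, had means of 10.16 ± 0.03 and 10.39 ± 0.13 (SD, n = 3). Its log2 FC of 0.23 (SE 0.08, limma's adjusted p = 0.1) was not called. The neuronal form TAGLN3 was below the background level in all cultures.

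The calponins damp the ATPase of myosin on actin. CNN1, the form of differentiated smooth muscle (12880668), had signals of 6.04, 6.08 and 6.18 at normal density and of 6.50, 6.27 and 6.21 at high density. High density replicate 1 was the highest, and the lowest high density culture exceeded the highest normal density culture by a narrow margin. The log2 FC of CNN1 was 0.23 (SE 0.10, limma's adjusted p = 0.152), and without high density replicate 1 it was 0.14, the lowest value with a culture left out. CNN2, the form found also in non-muscle cells (12881080), had signals of 6.85, 6.88 and 6.94 at normal density and of 7.12, 7.02 and 7.13 at high density. Here too the groups did not overlap, and the log2 FC was 0.21 (SE 0.07, limma's adjusted p = 0.0841). The 95% intervals, from 0.002 to 0.45 for CNN1 and from 0.04 to 0.37 for CNN2, ended below the log2 FC of 0.58 that the threshold requires. CNN3, the third calponin, was spread widely at high density, with an SD of 0.40 (n = 3), and had a log2 FC of −0.18 (SE 0.19, limma's adjusted p = 0.569).

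MYH11 is the heavy chain of smooth muscle myosin and a marker of mature smooth muscle cells. Its signals (12817585) were 4.44, 4.76 and 4.58 at normal density and 3.95, 3.85 and 3.99 at high density. All high density cultures were lower than all normal density cultures, but 1 of the 6 signals, that of normal density replicate 2, was above the background level. The means were 4.59 ± 0.16 and 3.93 ± 0.07 (SD, n = 3), with a fitted log2 FC of −0.67 (SE 0.10, limma's adjusted p = 0.00325). Since neither mean exceeded the background level, this value does not measure the size of the fall, and no lower bound can be given. Without normal density replicate 2 the fitted value was −0.58 and MYH11 was not called.

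MYL9 encodes the regulatory light chain of smooth muscle myosin, which myosin light chain kinase phosphorylates. The MYL9 signals (12714210) were 8.17, 8.19 and 8.12 at normal density and 8.15, 7.96 and 8.19 at high density. The groups overlapped, and high density replicate 2 alone was lower than the rest. The log2 FC was −0.06 (SE 0.08, limma's adjusted p = 0.663, 95% interval from −0.25 to 0.13), and without that culture it was 0.01. None of its relatives among the light chains MYL6, MYL6B, MYL12A and MYL12B was called, with log2 FC values between 0.10 and 0.24. The non-muscle heavy chains had changes of −0.16 (MYH9, SE 0.07, limma's adjusted p = 0.168) and 0.06 (MYH10, SE 0.07, limma's adjusted p = 0.572), and MYH14 was below the background level in all cultures.

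Tropomyosins are coiled coils that lie along the actin filament and set the access of other proteins to it. TPM1 (12693426) had signals of 10.66, 10.56 and 10.63 at normal density and of 10.21, 10.44 and 10.32 at high density. All high density cultures were lower than all normal density cultures, though high density replicates 1 and 2 differed from each other by more than the normal density cultures did. The log2 FC was −0.30 (SE 0.08, limma's adjusted p = 0.0425). TPM1 thus passed the FDR threshold and missed that for the fold change, with a fold change of −1.23. Its adjusted p from limma was 0.014 without high density replicate 2, between 0.0915 and 0.139 with any other culture left out and 0.098 with a replicate block, and it was 0.0804 with the methods' t-test, so that passing the FDR threshold depended on the fit. TPM2 (12892875) had signals of 6.74, 6.62 and 6.77 at normal density and of 6.56, 6.63 and 6.61 at high density, which overlapped. Its log2 FC was −0.11 (SE 0.07, limma's adjusted p = 0.337, 95% interval from −0.28 to 0.06).

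Of the tropomyosins outside the set, TPM3 changed from 5.44 ± 0.23 to 4.88 ± 0.04 (SD, n = 3), a log2 FC of −0.56 (SE 0.12, limma's adjusted p = 0.0152) that was just under the fold change threshold. TPM4 had a log2 FC of 0.03 (SE 0.07, limma's adjusted p = 0.83). CALD1 encodes caldesmon, which binds actin and calmodulin and restrains myosin. The CALD1 signals (12848949) were 10.34, 10.29 and 10.35 at normal density and 10.18, 10.08 and 10.19 at high density. The groups did not overlap, but the change was small, with a log2 FC of −0.18 (SE 0.07, limma's adjusted p = 0.119). TPM1, TPM2 and CALD1 each give rise to muscle and non-muscle forms by splicing, which a gene-level signal does not tell apart. The plot of the changes with their intervals sets ACTA2 and TAGLN apart from the other genes.

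**Figure D2:**
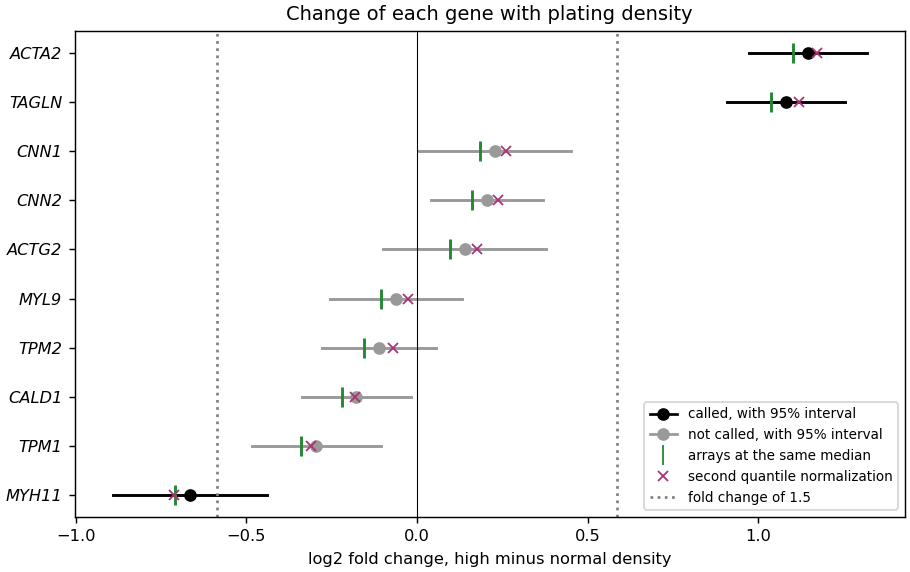
Log2 FC (high minus normal density, x axis) of each gene with its 95% interval from limma. Black marks called genes and grey the others, green ticks show the change with arrays at the same median, crosses that after a second quantile normalization, and dotted lines a fold change of 1.5 in either direction. The intervals of ACTA2 and TAGLN lie beyond the upper line, that of MYH11 crosses the lower line, and all others lie between the lines.

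Whether genes of a pair changed unequally was examined with the log2 ratio of their signals within each array, which does not depend on the scaling of the arrays by a constant. Only changes of such a ratio are given, since signals of different transcript clusters are not comparable as levels. The ratio of ACTA2 to ACTG2 was higher at high density by 1.01 on the log2 scale, which is 2.01-fold. Relative to their mean the normal density cultures lay between −0.15 and 0.08 and the high density cultures between 0.92 and 1.05. The groups were clearly separate (exact permutation test, two-sided, p = 0.1, which is the smallest that 3 against 3 cultures allow, and 0.133 adjusted over the 4 pairs).

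The ratio of TAGLN to MYH11 was higher by 1.75 at high density, without overlap of the groups (exact permutation p = 0.1). This shift rests on MYH11 signals mostly below the background level, so its size is not a measured one. The ratio of TPM1 to TPM2 shifted by −0.18, also without overlap (exact permutation p = 0.1). For CNN1 to CNN2 the shift was 0.02, with overlapping groups (exact permutation p = 0.7). In the plot of the ratios the high density cultures lie far from the normal density mean for ACTA2 to ACTG2 and for TAGLN to MYH11.

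**Figure D3:**
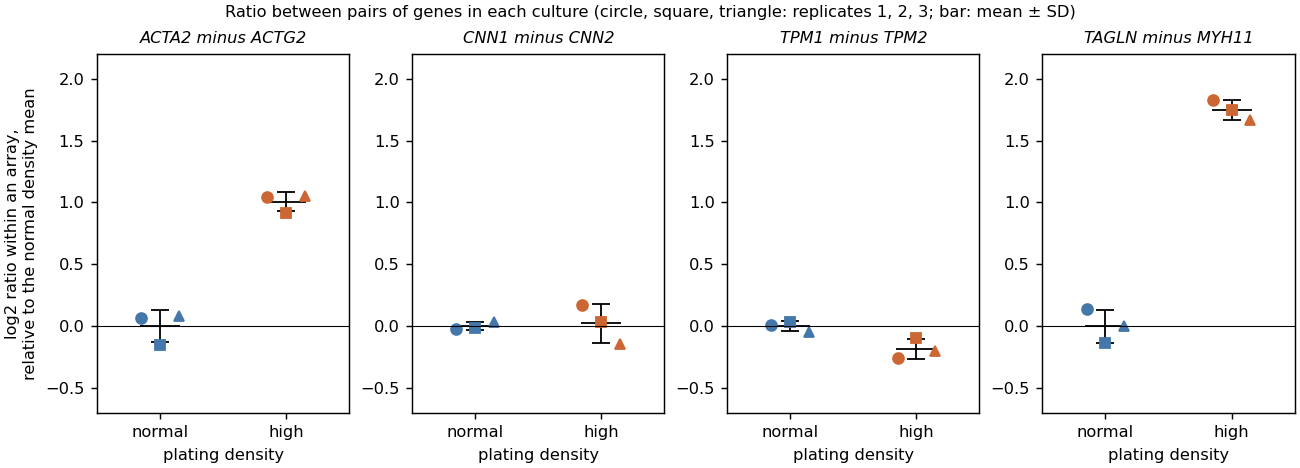
Log2 ratio between the signals of a pair of genes within an array, relative to the mean of the normal density cultures (y axis), for normal (blue) and high (orange) density. Circles, squares and triangles are replicates 1, 2 and 3, bars are means and whiskers SD (n = 3). The high density cultures lie between 0.92 and 1.05 for ACTA2 minus ACTG2 and between 1.66 and 1.83 for TAGLN minus MYH11, while those for CNN1 minus CNN2 lie on either side of 0.

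Within a density the 10 genes varied little. Their SD was between 0.03 and 0.16 at normal density, with a median of 0.05, and between 0.04 and 0.16 at high density, with a median of 0.09. For 8 of the 10 genes the SD was larger at high density, and the same held for 18308 of all 26773 transcript clusters. Over the whole table the median SD was 0.08 at normal and 0.13 at high density. At high density replicate 1 was the highest of its group for 3 genes, replicate 2 for 3 and replicate 3 for 4. The lowest was replicate 1 for 2 genes, replicate 2 for 5 and replicate 3 for 3. Without high density replicate 2 the genes ACTA2, TAGLN and MYH11 were called as with it.

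Further genes of the contractile apparatus were examined as lists, whose shares of called transcript clusters (12.9% for actin filament proteins, 8.33% for myosins, 15.6% for paralogs and 22.2% for transcription factors) stand beside the 7.49% of the whole table. Among proteins that build, cap or anchor actin filaments, 31 transcript clusters of 29 genes were measured, of which 2 were called up and 2 down, with a median log2 FC of 0.04. LIMA1 (EPLIN), which bundles and stabilizes actin filaments, fell from 7.15 ± 0.12 to 6.13 ± 0.13 (SD, n = 3), a log2 FC of −1.02 (SE 0.10, limma's adjusted p = 0.000522). VCL, the focal adhesion protein vinculin, fell by 0.60 on the log2 scale (SE 0.07, limma's adjusted p = 0.000948), just beyond the threshold. CAPG, a filament capping protein, rose by 0.68 (SE 0.10, limma's adjusted p = 0.00318). EZR (ezrin), which links actin to the membrane of microvilli, rose by 0.61 (SE 0.07, limma's adjusted p = 0.00112). VCL was not called without normal density replicate 2 (−0.58) or high density replicate 3 (−0.58), and EZR was not called without high density replicate 3 (0.57) or with arrays at the same median (0.57).

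Among myosin subunits and the kinases, phosphatase subunits and small GTPases that regulate them, 2 of 24 transcript clusters were called and both rose, with a median of 0.01 over the list. PPP1R14A (CPI-17), an inhibitor of myosin phosphatase known from smooth muscle, had signals of 5.03, 5.15 and 4.95 at normal and of 5.74, 5.79 and 5.91 at high density, a log2 FC of 0.76 (SE 0.08, limma's adjusted p = 0.000927). RND3, a small GTP-binding protein that opposes ROCK1, rose from 8.80 ± 0.05 to 9.66 ± 0.07 (SD, n = 3), a log2 FC of 0.86 (SE 0.07, limma's adjusted p = 0.00029). MYLK, the kinase of the regulatory light chain, stood just under the fold change threshold at 0.57 (SE 0.07, limma's adjusted p = 0.00189) and was called in 2 of the 6 fits with a culture left out.

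In the list of paralogs and other smooth muscle cytoskeleton genes 3 of 32 transcript clusters were called up and 2 down, and the median log2 FC was 0.11. The largest rise in this list was that of PDLIM3 (ALP), a PDZ-LIM protein that binds alpha-actinin, from 4.88 ± 0.02 to 7.31 ± 0.11 (SD, n = 3). Its signals were 4.87, 4.87 and 4.90 at normal and 7.26, 7.43 and 7.23 at high density, a log2 FC of 2.43 (SE 0.08, limma's adjusted p = 1.07e-05). CSRP2, a LIM protein of smooth muscle, had signals of 7.56, 7.57 and 7.54 and of 8.86, 9.07 and 8.85, a log2 FC of 1.37 (SE 0.08, limma's adjusted p = 7.51e-05). The estimates for PDLIM3 and CSRP2 were thus above those for ACTA2 and TAGLN, although differences between these genes were not tested. TGFB1I1 (Hic-5), a focal adhesion adaptor, rose by 0.72 (SE 0.13, limma's adjusted p = 0.00919) and was not called without high density replicate 1 (0.58) or with the methods' t-test.

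The genes of this list that fell were SYNPO2 and ITGA8. SYNPO2, an actin-bundling protein of smooth and striated muscle, had signals of 5.30, 5.12 and 5.30 at normal and 4.09, 4.01 and 4.07 at high density, a log2 FC of −1.18 (SE 0.08, limma's adjusted p = 0.000109). ITGA8, an integrin subunit found on smooth muscle cells, had means of 5.14 ± 0.03 and 4.04 ± 0.16 (SD, n = 3) and a log2 FC of −1.10 (SE 0.09, limma's adjusted p = 0.000298). Both were below the background level in all high density cultures. Measured against that level SYNPO2 was at least 1.54-fold and ITGA8 at least 1.43-fold lower at high density. In this list 11 transcript clusters passed the FDR threshold at any fold change, and the plot by gene list shows several that were not called near the dotted lines, TPM3 among them.

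**Figure D4:**
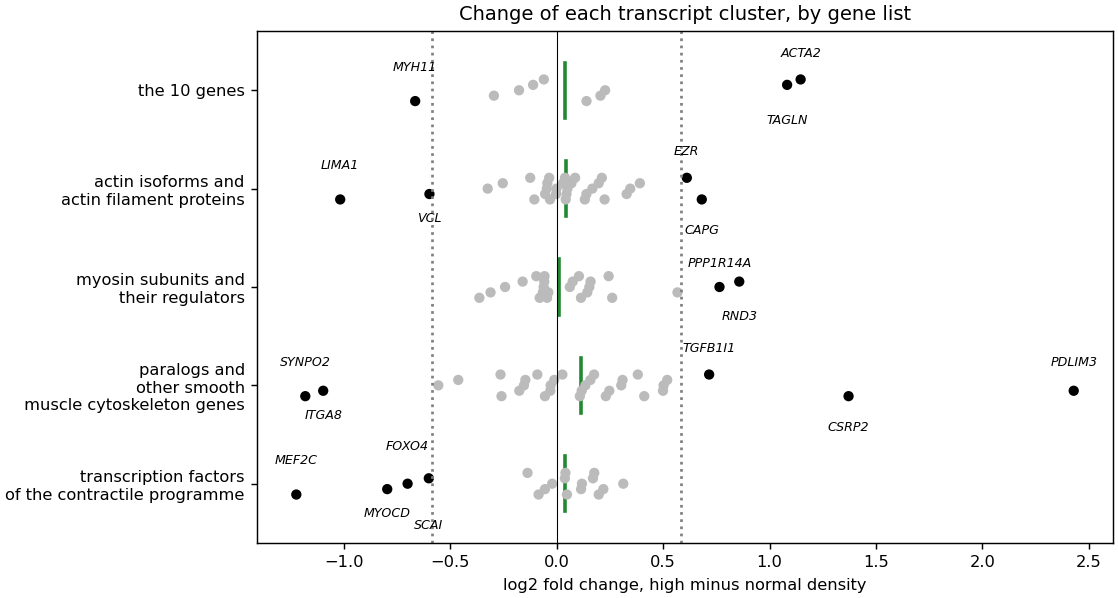
Log2 FC (high minus normal density, x axis) of each transcript cluster in the 10 genes and in 4 lists of related genes. Black points are called and named, grey points are not called, green bars mark the median of a list and dotted lines a fold change of 1.5. Medians lie between 0.01 and 0.11, and the called genes lie on both sides except for the myosin list, where both rose, and the transcription factors, where all 4 fell.

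Of 18 transcript clusters of transcription factors and cofactors linked to the contractile genes, none was called up and 4 were called down, and the median was 0.04. MYOCD, the coactivator of SRF in smooth and cardiac muscle, had signals of 6.17, 6.27 and 5.89 at normal density and of 5.41, 5.40 and 5.12 at high density. It was lower in every high density culture than in any normal density culture, with a log2 FC of −0.80 (SE 0.13, limma's adjusted p = 0.0047). SRF itself had signals of 6.77, 6.82 and 6.68 and of 7.15, 6.96 and 7.10, a log2 FC of 0.31 (SE 0.08, limma's adjusted p = 0.0346) that missed the fold change threshold.

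The actin-regulated coactivators of SRF, which the array names MKL1 and MKL2, were not called, with 95% intervals of their log2 FC values from −0.04 to 0.40 and from −0.18 to 0.13. MEF2C, a muscle and vascular transcription factor, fell from 6.78 ± 0.15 to 5.55 ± 0.18 (SD, n = 3), a log2 FC of −1.22 (SE 0.12, limma's adjusted p = 0.000551). FOXO4, which can repress myocardin activity, fell by 0.70 on the log2 scale (SE 0.10, limma's adjusted p = 0.00287). SCAI, a corepressor of the MKL proteins, fell by 0.60 (SE 0.11, limma's adjusted p = 0.00787) and lost its call without normal density replicate 1 (−0.57), high density replicate 1 (−0.58) or high density replicate 3 (−0.52), after a second quantile normalization (−0.56) and with the methods' t-test.

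The cell type was examined with marker lists. All 9 transcript clusters of the GC list had a group mean above the background level. At high density 6 of them (66.7%) were called down, among them FSHR, CYP19A1 and INHA, beside 7.49% of all transcript clusters called. The list had 7 negative and 2 positive log2 FC values. The positive ones, neither of them called, were NR5A2 with 0.41 (SE 0.07, limma's adjusted p = 0.00482) and CDH2 with 0.14 (SE 0.06, limma's adjusted p = 0.17). The summed linear signal of this list was between 5322 and 5733 at normal density and between 3975 and 4311 at high density. In cultured cells as in other bulk samples, fewer cells of a type and less RNA per cell cannot be told apart. For theca and stromal fibroblasts 2 of 10 markers (20.0%) were called up and none down, with 7 positive and 3 negative log2 FC values. At any fold change 5 passed the FDR threshold, beside 19.1% of all transcript clusters. Among these, PDGFRA (0.32), COL1A2 (0.38) and COL3A1 (0.39) were higher at high density and missed the fold change threshold. The sum of this list was between 5576 and 5755 at normal and between 6384 and 6622 at high density. LUM and DCN had the strongest signals of this list at both densities and were not called, with log2 FC values of 0.01 and 0.17. INSL3, a peptide hormone known from theca cells, rose by 1.82 (SE 0.09, limma's adjusted p = 3.88e-05) and COL1A1, a chain of type I collagen, by 1.15 (SE 0.13, limma's adjusted p = 0.000904), while the theca enzyme CYP17A1 and the stromal transcription factor TCF21 were below the background level in all cultures.

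Among 9 markers of vascular smooth muscle and pericytes 3 were called up and 1, MYOCD, down (44.4% called, beside 7.49% of all transcript clusters). The sum of these markers was between 302 and 331 at normal and between 368 and 427 at high density. It was thus higher at high density, as ACTA2 and TAGLN were. Without PDGFRB the sum of the other 8 lay between 191 and 225 at normal and between 192 and 211 at high density. Without this gene the ranges at normal and high density thus overlapped. Of the 8 genes in that sum, RGS5, CSPG4, ABCC9, DES and LMOD1 had positive and MCAM, KCNJ8 and MYOCD negative log2 FC values. A linear sum weighs the stronger signals most, and falls in it offset rises. Of the 9 markers 6 had a positive and 3 a negative log2 FC. Their median was 0.30, beside 0.02 over all transcript clusters. PDGFRB, the platelet-derived growth factor receptor of mural cells, rose by 0.94 (SE 0.10, limma's adjusted p = 0.000811) and CSPG4 by 0.72 (SE 0.12, limma's adjusted p = 0.00551), with CSPG4 above the background level in 1 of 3 normal density cultures. ABCC9 was called up with both groups below the background level. RGS5, ABCC9 and KCNJ8 of the same list were below the background level in all 6 cultures. MCAM, with a log2 FC of −0.37 (SE 0.09, limma's adjusted p = 0.0257), was not called. Of the other smooth muscle markers in this list, DES (desmin) was higher in every high than in any normal density culture and was not called, with a log2 FC of 0.50 (SE 0.15, limma's adjusted p = 0.0521). LMOD1 was not called either, with 1 of its 6 signals above the background level. Of 8 endothelial markers 6, including PECAM1 and CDH5, were below the background level in all cultures. CLDN5 alone (12.5%) was called, and it rose. VWF was above the background level in all cultures, higher in every high than in any normal density culture, and not called. Its log2 FC was 0.31 (SE 0.09, limma's adjusted p = 0.0572). KDR (0.48) and TEK (−0.36), both below the background level, passed the FDR threshold in opposite directions and were not called. The sum of the 8 markers was between 111 and 113 at normal and between 267 and 305 at high density. Without CLDN5 it was between 83.1 and 87.9 and between 93.9 and 102. All 6 leukocyte markers were below the background level, with sums between 69.3 and 80.9 at high density. The part of other cell types in the signals of ACTA2 and TAGLN was not tested.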

How the data were processed

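RNA from 6 cultures of bovine GC was hybridized to Bovine Gene 1.0 ST arrays. Scans were processed by the authors in Expression Console with RMA (background reduction, normalization between arrays, gene-level summary), and the deposited values are log2 signals per transcript cluster and culture, used here without further normalization. The genome build and annotation version are not given in the sources used here. The table had 0 columns of other samples, and no signals of the 10 genes equalled those of another row. All 10 symbols were found among RefSeq genes of ARS-UCD2.0, and 8 by the accession in the table.

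Group differences were fitted with limma 3.58.1 in R 4.3.3 (lmFit, eBayes, no covariates) over all 26773 transcript clusters with Benjamini-Hochberg adjustment, at the thresholds of the methods. Per the methods the RNA came from 6 GC preparations, 3 in each group. The labels do not say whether cultures at normal and high density shared a preparation. The p-values thus measure the spread between cultures of pooled cells. Ratio shifts were tested with exact permutation tests in SciPy 1.17.1. A gene at or below the background level on every array of a group has only a bound there, taken from the background level. Summed signals add the linear signals of a list and were compared between cultures only; the genes left out of a sum were chosen after values were seen. Scripts were tested on simulated data. Figures were drawn with matplotlib 3.10.9.

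The genes, lists and tests were chosen with earlier results of these data known. Of each list, called genes with the largest changes (at most 5 each way) and SRF, MYOCD, MKL1 and MKL2 are named. Close relatives of the 10 genes, MYLK and single markers were named after their values were seen. Among the listed symbols, FLNC, PPP1R12B, HSPB7 and NOTCH3 were not analysed here, and MRTFA and MRTFB stand in the table as MKL1 and MKL2. Alternatives were the methods' t-test, a variance trend with robust estimation, weights for arrays, a replicate block, arrays at the same median, a second quantile normalization, a filter at the background level, no fold change threshold, and each culture left out.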

Additional observations from a re-analysis of the deposited data

How the results depend on the processing

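The calls of ACTA2 and TAGLN held under every alternative tried. The number of the 10 genes called was between 2 and 4. With each culture left out it was between 2 and 3, those called up were 2 throughout and those called down between 0 and 1. The number called down was 0 with the filter at the background level, which leaves MYH11 out and tests 9 genes, and 2 without a fold change threshold, where TPM1 (−0.30) was called. The FDR of TPM1 was above the threshold in 5 of the 6 fits with a culture left out, with the replicate block and with the methods' t-test. MYH11 had −0.58 without normal density replicate 2 and was then not called, and with each culture left out it was between −0.74 and −0.58. MYL9, not called, turned to 0.011 without high density replicate 2 (between −0.11 and 0.011 with each culture left out), and the ratio of CNN1 to CNN2 to −0.053 without high density replicate 1 (between −0.053 and 0.10).

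Without a fold change threshold the lists had 7 (actin filament proteins), 4 (myosin) and 11 (paralogs) called transcript clusters in place of 4, 2 and 5. With each culture left out these counts were between 2 and 4, 2 and 3, and 4 and 7, the lowest for the actin filament list without high density replicate 3, and those of the transcription factors between 3 and 4. The alternative with other rows of a symbol was not run, since each gene of a pair has 1 row. With the replicate number as a block, 3 of the 10 genes were called, as before (adjusted p = 0.00119 for ACTA2, 0.00137 for TAGLN and 0.0127 for MYH11 from limma). The labels do not say whether the numbers pair the cultures. Deviations from the group means of same-numbered cultures correlated over transcript clusters at 0.05, −0.05 and −0.04. With 3 cultures in a group these correlations cannot decide whether same-numbered cultures shared a preparation. Signals near the background level limit MYH11, SYNPO2, ITGA8 and ACTA1.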
